A study of Mus musculus with 8 samples.

Results

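The genes described here are the writers, erasers and readers of N6-methyladenosine (m6A) in mRNA. They are 10 genes chosen by symbol from a fixed list, among 24535 uniquely named genes in the RNA-seq values and 25033 in the Ribo-seq values of mouse liver. The list holds 3 writers (Mettl3, Mettl14 and Wtap), 2 erasers (Fto and Alkbh5) and 5 readers (Ythdf1, Ythdf2, Ythdf3, Ythdc1 and Ythdc2), and all of them are listed in every library. No measured value entered the choice of the list, but it was drawn up with earlier results of these data known. All mice were C57BL/6 on a diet with 45% of its energy from fat. The HF group (the M group of the study) had the diet alone, and the HB group (the B group) also had 2% (w/v) betaine, a methyl donor, in the drinking water. Treatment began at week 8 of age and the livers are labelled as week 25, which leaves 17 weeks, although another label gives 25 weeks on the diet. RNA-seq measured polyadenylated mRNA and Ribo-seq measured footprints of ribosomes on mRNA, called ribosome-protected fragments (RPFs), each with 2 libraries per group. The labels speak of pooled preparations and the study of individual mice, so p-values measure the spread between libraries, which may be partly technical.

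m6A is the most common internal mark of mRNA. METTL3 transfers the methyl group from S-adenosylmethionine, METTL14 is its RNA-binding partner, and WTAP holds both in nuclear speckles. FTO and ALKBH5 remove the mark. The YTH proteins bind it: YTHDF1, YTHDF2 and YTHDF3 act in the cytoplasm on translation and decay, YTHDC1 acts in the nucleus on splicing and export, and YTHDC2 is an RNA helicase best known from meiosis. Betaine feeds the methionine cycle, from which S-adenosylmethionine is made, and the study discusses YTHDF1, YTHDF2 and FTO as possible links between betaine and translation.

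The mark lies within a short motif of several forms, of which GGACT (in DNA letters) is the most frequent, and this form is shown to give the sequence that the listed proteins act on. GENCODE M21 coding sequences (GRCm38, 1 transcript with the longest coding sequence per gene, sense strand) held GGACT in 71.66% of 21842 genes. It occurred 3 times each in the coding sequences of Mettl3 and Ythdc2, 2 times each in Wtap, Alkbh5 and Ythdf2, and 1 time each in Mettl14, Fto, Ythdf1 and Ythdf3. The coding sequence of Ythdc1, 2208 bases long, did not hold these letters. The first matches in Ythdf3 (chr3:16204257-16204281, plus strand, coding exon, base 610 of the coding sequence) and Fto (chr8:91666292-91666316, plus strand, coding exon, base 1376) are given with 10 bases on either side, the motif in capitals. A match is a description of the letters and not a methylated site.
Ythdf3: aggcatgactGGACTgaaaattggt
Fto: cgagtcgtccGGACTttaccagtac

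Total reads behind the RPKM, recovered from the steps between low values, were 11661207 to 22543471 in RNA-seq libraries and 141890 to 1056546 in Ribo-seq. The RPKM of a gene is its reads per kilobase of gene scaled to the total reads of the library. The HB libraries were the more deeply sequenced in RNA-seq and the less deeply sequenced in Ribo-seq. The 10 members rested on 41 to 1460 reads each in an RNA-seq library, and on 0 to 311 reads in a Ribo-seq library. Together they had 254 and 732 footprint reads in HF replicates 1 and 2, and 120 and 111 in HB replicates 1 and 2. All 6 hepatocyte markers were detected, with a summed mRNA level of 44910 and 47630 RPKM in the HF libraries and 56890 and 53900 RPKM in the HB libraries. Of the marker lists for other cell types, those of Kupffer cells and sinusoidal endothelium had no called mRNA change. The same held for the stellate cell list, whose summed level was 29.7 and 29.6 RPKM in HF and 67.5 and 38.4 RPKM in HB, and for the cholangiocyte (1 of 4 genes tested) and lymphocyte (1 of 4 tested) lists. The lymphocyte sum was 5.58 and 7.38 RPKM in HF and 2.89 and 2.60 RPKM in HB. Of the 3 germ cell markers 1 was tested and called lower. In RPF, 2 of 5 endothelial and 1 of 6 Kupffer cell markers were called lower, where 7.86% of all tested genes were. Summed RPF levels were 129.3 and 101.3 RPKM in HF and 105.3 and 55.3 in HB for the endothelial list. For Kupffer cells they were 128.6 and 99.1 in HF and 116.2 and 72.6 in HB. The stellate list had no RPF call, with sums of 125.4 and 106 in HF and 87.2 and 80.9 in HB. The part of these shifts in the results below was not tested. In bulk liver, fewer cells of a type and less RNA per cell cannot be told apart.

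At the mRNA level, the clearest difference between the groups was in the reader Ythdc1, whose mRNA fell with betaine to 0.336 of its HF level. Ythdf3, a cytoplasmic reader, was at 0.472 of its HF level, and the eraser Fto at 1.93 times its HF level. The remaining members differed less. Calls used limma on log2(RPKM + 1) and the thresholds of the study, a log2 fold change larger than 1 in size with p below 0.001 before adjustment. By that rule 1 of the 9 members tested was called lower and 0 were called higher, where 6.56% of the 10687 tested genes were called lower and 2.3% higher. That background turned on the scaling, with 246 genes higher and 701 lower in the values as deposited and 540 higher and 291 lower with libraries shifted to a common median, and Ythdc1 was called lower in both. In limma 5 of the 9 members had an unadjusted p under 0.05, where 40.5% of tested genes did, and voom on recovered reads also called 0 members higher. At a Benjamini-Hochberg adjusted p under 0.05 without a fold change limit, Ythdc1 and Ythdf3 were lower, 2 of 9, where 19.1% of tested genes were lower and 7.92% higher. With a common median this became 1 lower (Ythdc1) and 1 higher (Fto), and without the filter on low values 0 passed (limma). With the fold change limit added to the adjusted p, the same 2 members were lower, where 12.7% of tested genes were lower and 5.01% higher. The share of members lower was near the background under each rule. The median log2 fold change of the 9 members was -0.36, and that of all tested genes was -0.19.

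**Figure D1:**
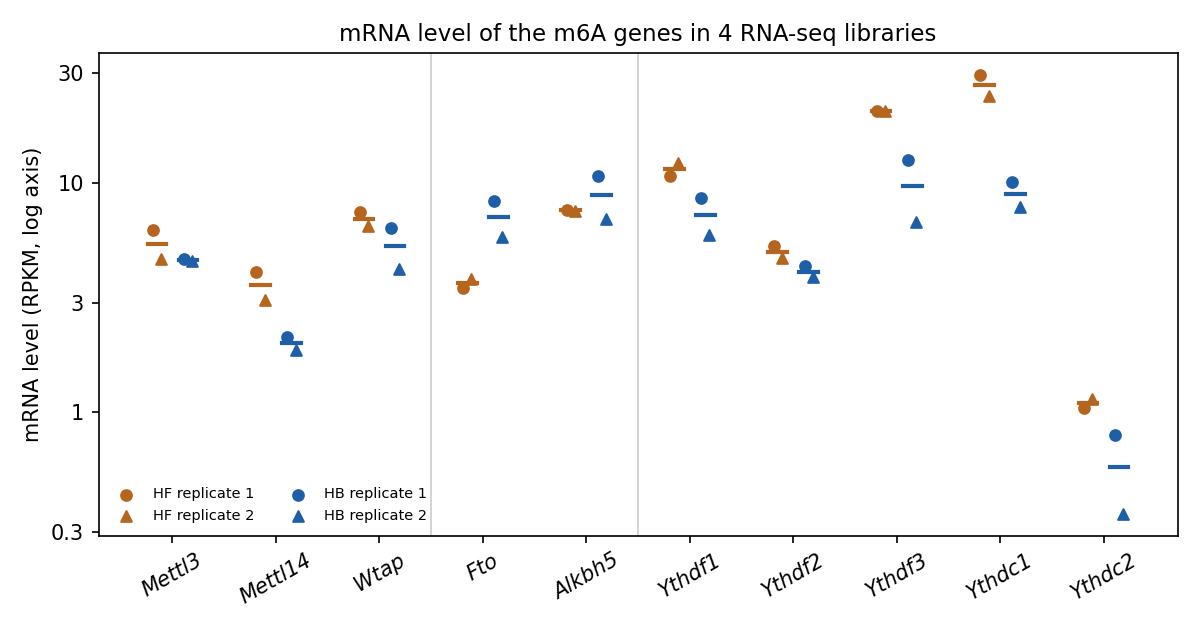
mRNA level (RPKM, log axis) of the 10 genes in each RNA-seq library, with HF in brown and HB in blue, circles for replicate 1, triangles for replicate 2 and bars for group means; grey lines part writers, erasers and readers. Both HB values of Ythdc1 (10.1 and 7.82) lie well below both HF values (29.5 and 23.8), and the HB values of Fto lie above its HF values.

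Ythdc1 (ENSMUSG00000035851.14, chromosome 5 of GRCm38, 86804221 to 86836659, plus strand) had an mRNA level of 29.5 and 23.8 RPKM in the HF libraries and 10.1 and 7.82 RPKM in the HB libraries. The groups did not overlap, and the gap between them was wider than the spread within either. The means were 26.7 ± 4.03 and 8.96 ± 1.62 RPKM (SD, 2 libraries per group). The log2 fold change was -1.47 (standard error 0.26, 95% interval -2.06 to -0.89, limma adjusted p = 0.00663). These values rest on 1095 and 896 reads in HF and on 725 and 450 in HB. Only 3.84% of tested genes had a lower log2 fold change. Without the filter on low values the log2 fold change stayed at -1.47, and the limma p moved just past the study's 0.001 (limma adjusted p = 0.0539). The threshold was also missed without HF replicate 1, where the log2 fold change was -1.33 with an unadjusted p = 0.00261 (limma). A noncoding gene on the same strand, Gm43055, shares 631 exonic bases with Ythdc1 in GENCODE, and reads there cannot be told apart.

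Ythdf3 (ENSMUSG00000047213.14, chromosome 3, 16183212 to 16217037, plus strand), which works with the other YTHDF proteins in translation and decay of marked mRNA, had 20.5 RPKM in each HF library and 12.6 and 6.73 RPKM in the HB libraries. The HF libraries were almost equal, while HB replicate 2 was well below HB replicate 1. The log2 fold change was -1.07 (standard error 0.30, limma adjusted p = 0.0297), past the adjusted threshold but not past the study's p of 0.001. The size turned on the HB library used: it was -1.48 without HB replicate 1 and -0.66 without HB replicate 2. The adjusted p over the alternatives ranged from 0.00602 to 0.0985 (limma), and with a common median the log2 fold change was -0.80 (limma adjusted p = 0.0722).

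The other cytoplasmic readers had smaller differences. Ythdf1 (chromosome 2, 180904377 to 180920949, minus strand), the reader linked to translation initiation through eIF3, had 10.7 and 12.2 RPKM in HF and 8.59 and 5.89 RPKM in HB. Its groups did not overlap, with a log2 fold change of -0.61 (standard error 0.27, limma adjusted p = 0.117). It was -0.34 with a common median, -0.85 without HB replicate 1 and -0.37 without HB replicate 2. Ythdf2 (chromosome 4, 132184912 to 132212303, minus strand), which brings marked mRNA to the CCR4-NOT deadenylase, had 5.28 and 4.69 RPKM in HF and 4.32 and 3.88 RPKM in HB. The difference was small, with a log2 fold change of -0.23 and a 95% interval of -0.78 to 0.32 (limma). It changed sign, to 0.04, when the log2 values of the libraries were shifted to a common median.

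Ythdc2 (chromosome 18, 44827746 to 44889724, plus strand) had the lowest mRNA level of the 10 members, at 1.05 and 1.14 RPKM in HF and 0.796 and 0.360 RPKM in HB. Its mean of 0.836 RPKM was under the filter of 1 RPKM, so that it was not tested for mRNA or for the ratio. Without the filter its log2 fold change was -0.42 (standard error 0.18, limma adjusted p = 0.199). Meioc, which encodes the meiotic partner of YTHDC2, did not pass the filter either.

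Among the writers, none passed the threshold. Mettl14 (chromosome 3, 123368297 to 123386108, minus strand) had the largest difference, with 4.08 and 3.09 RPKM in HF and 2.13 and 1.87 RPKM in HB. Both HB values lay below both HF values, and the log2 fold change was -0.60 (standard error 0.25, limma adjusted p = 0.0963), or -0.33 with a common median. Its catalytic partner Mettl3 (chromosome 14, 52294841 to 52305128, minus strand) had 6.20 and 4.65 RPKM in HF and 4.66 and 4.54 RPKM in HB. The groups overlapped, with a log2 fold change of -0.19 and a 95% interval of -0.76 to 0.38 (limma), and the value turned to 0.09 with libraries shifted to a common median. Tox4 on the opposite strand shares 933 exonic bases with Mettl3. Wtap (chromosome 17, 12966796 to 12994169, minus strand) had 7.46 and 6.50 RPKM in HF and 6.37 and 4.197 RPKM in HB, a log2 fold change of -0.36 (95% interval -0.97 to 0.24, limma). It was -0.62 without HB replicate 1, -0.11 without HB replicate 2 and -0.09 with a common median.

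In the values as deposited, both erasers had a positive log2 fold change, unlike the 7 other members tested. Fto (chromosome 8, 91313525 to 91668439, plus strand) had 3.49 and 3.80 RPKM in HF and 8.30 and 5.81 RPKM in HB. Its groups did not overlap, and its log2 fold change of 0.78 (standard error 0.26, 95% interval 0.19 to 1.36) just missed the adjusted threshold (limma adjusted p = 0.0532). Of all tested genes, 91.0% had a lower value. Its adjusted p was 0.0473 with the replicate number as a block and 0.0173 with libraries shifted to a common median (limma). Leaving out each library in turn moved the log2 fold change between 0.55 (without HB replicate 1) and 1.00 (without HB replicate 2). Exons of antisense genes overlap those of Fto by 304 and 144 bases. Alkbh5 (chromosome 11, 60536381 to 60558512, plus strand) had 7.61 and 7.55 RPKM in HF and 10.7 and 6.93 RPKM in HB. The HB libraries lay on either side of HF, and the log2 fold change was 0.16 (95% interval -0.45 to 0.78, limma), which turned to -0.11 without HB replicate 1.

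Over the 10 members, 7 had both HB values below both HF values, 1 (Fto) had both above, and Mettl3 and Alkbh5 overlapped. Among all tested genes 43.3% were lower without overlap and 24.8% were higher without overlap. HB replicate 1 was above HB replicate 2 in 10 of 10 members, against 53.0% of all tested genes, and HF replicate 1 was above HF replicate 2 in 6 of 10 members. The order of the mRNA levels also changed. In HF it ran Ythdc1, Ythdf3, Ythdf1, Alkbh5, Wtap, Mettl3, Ythdf2, Fto, Mettl14 and Ythdc2. The range of each gene was separate from the next except between Mettl3 and Ythdf2 and between Fto and Mettl14. In HB the upper 7 genes, from Ythdf3 at 9.67 RPKM to Mettl3 at 4.60 RPKM, each overlapped the next. Fto moved from the eighth place to the fifth, and the mean level of Ythdc1 from above 78.3% of tested genes to above 57.7%.

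At the footprint level, no member was called. The highest RPF levels were those of Alkbh5 and Ythdf3, and the writers Mettl3 and Mettl14 had almost no footprints. The threshold was a log2 fold change larger than 1 in size with p below 0.05 before adjustment, by which 7.86% of the 11190 tested genes were called lower and 1.58% higher. With a common median 349 genes were higher and 421 lower in RPF, against 177 and 879 as deposited. Of the 10 members 0 were called in limma, 0 had an unadjusted p under 0.05 and 0 were called by voom on recovered reads. The smallest adjusted p of a member was 0.611 (limma), and 0 genes of the whole table passed an adjusted p of 0.05 in limma, while 1122 had an unadjusted p under 0.05. The median log2 fold change was -0.36 over the members and -0.43 over all tested genes. The interval of Ythdc1 spanned both a fall and a rise of more than its mRNA change.

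**Figure D2:**
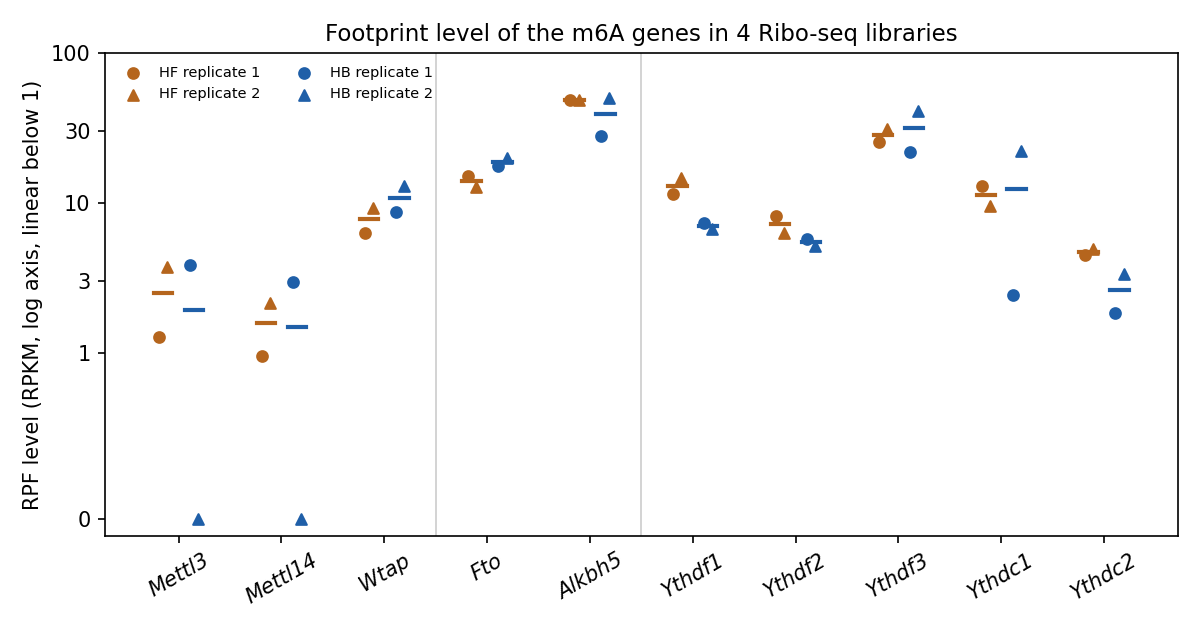
RPF level (RPKM, log axis that turns linear below 1) of the 10 genes in each Ribo-seq library, with HF in brown and HB in blue, circles for replicate 1, triangles for replicate 2 and bars for group means. Mettl3 and Mettl14 are listed at 0 in HB replicate 2, and the HB values of Ythdc1 (2.44 and 22.1) lie on either side of both HF values.

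Alkbh5 had 48.8 and 48.9 RPF RPKM in HF and 27.8 and 50.3 RPF RPKM in HB, on 114, 311, 43 and 43 reads. HB replicate 1 was low, and the other libraries were alike. Its log2 fold change was -0.37 (95% interval -1.40 to 0.65, limma). The value was -1.23 with RPKM rescaled to a common sum, -0.05 with a common median and 0.04 without HB replicate 1. Fto had 15.2 and 12.8 RPF RPKM in HF and 17.5 and 19.8 in HB, on 21, 48, 16 and 10 reads. Both HB values were above both HF values, as in mRNA, and 9.07% of all tested genes were higher without overlap at the RPF level. The log2 fold change of Fto was 0.39 (95% interval -0.61 to 1.39, limma), and it turned to -0.43 when RPKM were rescaled to a common sum.

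Ythdf3 had 25.5 and 31.2 RPF RPKM in HF and 21.9 and 41.1 in HB, on 51, 170, 29 and 30 reads. The HB libraries enclosed the HF libraries, with a log2 fold change of 0.09 (95% interval -1.04 to 1.21, limma). Ythdc1 had 13.0 and 9.52 RPF RPKM in HF and 2.44 and 22.1 in HB. Its HB values rested on 2 and 10 reads, against 16 and 32 in HF, and differed more from each other than from HF. The log2 fold change was -0.44 (95% interval -3.02 to 2.14, limma). It was -1.81 without HB replicate 2 and 0.93 without HB replicate 1, so the footprints gave no direction for Ythdc1.

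Ythdf1 had 11.4 and 14.6 RPF RPKM in HF and 7.36 and 6.67 in HB, on 14, 49, 6 and 3 reads. It was lower in both HB libraries, as in mRNA, with a log2 fold change of -0.80 (95% interval -1.99 to 0.40, limma). The value was -1.58 with RPKM rescaled to a common sum and -0.47 with a common median. Ythdf2 had 8.22 and 6.27 RPF RPKM in HF and 5.72 and 5.18 in HB, and Ythdc2 had 4.501 and 4.959 in HF and 1.85 and 3.36 in HB. These 3 readers were lower in HB without overlap, where 33.2% of all tested genes were. In HB replicate 2 each of the 3 rested on 3 reads, the number taken here as the floor. The log2 fold change was -0.34 for Ythdf2 and -0.70 for Ythdc2, with adjusted p of 0.823 and 0.688 (limma). Leaving out each library moved Ythdf2 between -0.52 and -0.17 and Ythdc2 between -1.01 and -0.39. With a common median they were at -0.02 and -0.37.

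Among the writers, Wtap had 6.29 and 9.24 RPF RPKM in HF and 8.70 and 12.9 in HB, on 12, 48, 11 and 9 reads. The groups overlapped, with a log2 fold change of 0.43 (95% interval -0.89 to 1.75, limma). It was 0.69 without HB replicate 1 and 0.17 without HB replicate 2. Mettl3 had 1.28 and 3.75 RPF RPKM in HF and 3.85 and 0 in HB, on 1, 8, 2 and 0 reads. Mettl14 had 0.982 and 2.16 in HF and 2.96 and 0 in HB, on 1, 6, 2 and 0 reads. A count of 0 in HB replicate 2 allows up to 3 reads, or 10.5 RPF RPKM for Mettl3 and 8.05 for Mettl14, which is above every value measured for either gene. No direction can be read for this pair at this depth, and their fitted values in the plot of changes depend on the pseudocount. These floors cover counting error only, since PCR copies count as separate reads.

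**Figure D3:**
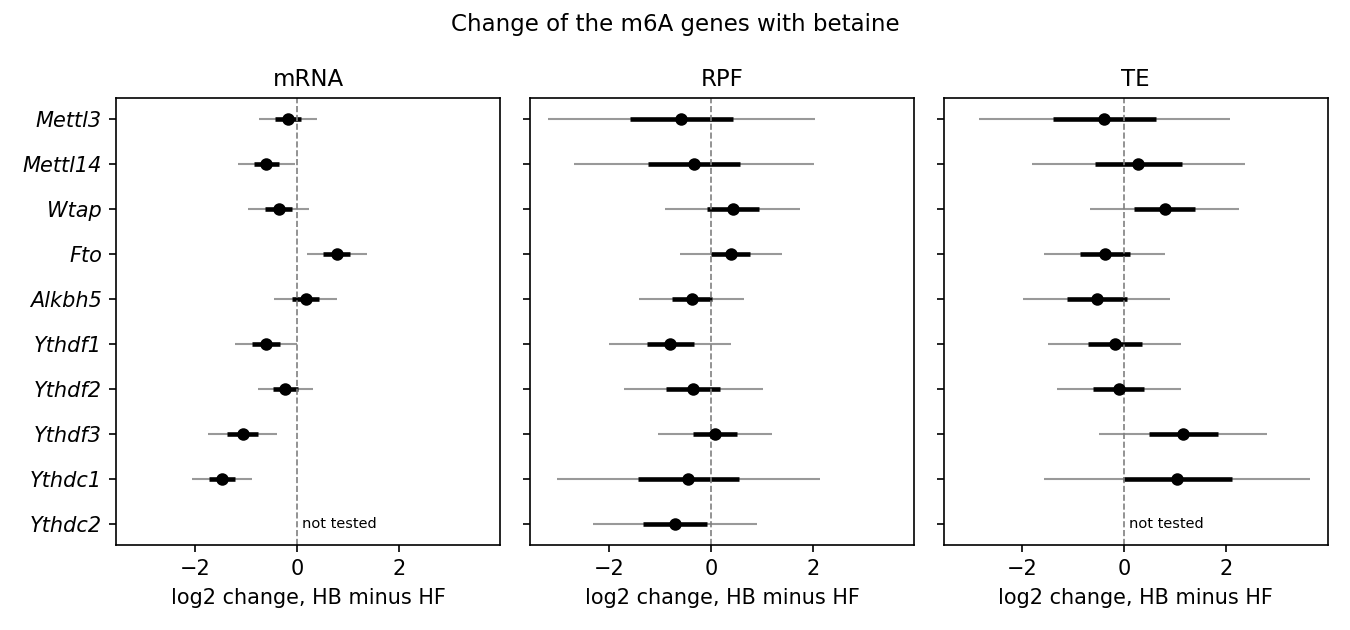
Log2 change (HB minus HF, limma) of the 10 genes in mRNA, RPF and TE, with thick bars for the standard error and thin bars for the 95% interval. In mRNA the thin bars of Mettl14, Fto, Ythdf1, Ythdf3 and Ythdc1 exclude 0, while in RPF those of all 10 genes include it; Ythdc2 was tested in RPF only.

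Translation efficiency (TE) was taken as the RPF RPKM divided by the mRNA RPKM of the library with the same group and number. Deviations from the group mean in mRNA and RPF correlated over genes at -0.00239 in HF and -0.0774 in HB. With 2 libraries per group and few footprint reads, this cannot tell whether a shared number means a shared liver. Values with the numbers crossed within each group are therefore given as well for members whose ratios changed most. In HF the highest TE values were those of both erasers and of Ythdc2. The TE was 6.44 ± 0.0458 for Alkbh5 and 3.85 ± 0.704 for Fto (SD, n = 2 ratios each), above 97.1% and 91.3% of tested genes. Ythdc2 had 4.294 and 4.345 in the HF pairs, over an mRNA level under the filter. Ythdc1, the member with the highest mRNA level, had the lowest mean TE, with 0.4392 and 0.3997 in the HF pairs. Mettl14 and Mettl3 overlapped it, at 0.470 ± 0.325 and 0.506 ± 0.425, on 1 to 8 reads. Ythdf1, Ythdf2, Ythdf3 and Wtap lay between 1.13 and 1.45, where the median of tested genes was 1.09. For each member the length behind the RPKM, recovered with the reads, exceeded the coding sequence (6025 bases for Alkbh5, against 1185 coding bases). Ratios between genes therefore depend on how RPFs outside the coding sequence were counted.

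With betaine, no member passed the threshold for TE, a log2 change beyond 2 with an unadjusted p under 0.05, by which 4.6% of the 9456 tested genes were called lower and 1.49% higher. These were 435 lower and 141 higher, and 253 and 258 with a common median. In limma 0 of the 9 members tested had an unadjusted p under 0.05, and the interaction of group and assay also called 0. Ythdf3 had TE values of 1.25 and 1.52 in HF and 1.74 and 6.11 in HB. Its HB values lay above HF, as in 13.2% of tested genes, with numbers as labelled. With crossed numbers the ratios were 1.52 and 1.24 in HF and 3.25 and 3.26 in HB, so that the spread in HB came with the pairing used. The log2 change was 1.15 (95% interval -0.49 to 2.80, limma adjusted p = 0.520). It was 0.34 with a common sum. With crossed numbers the change was the same as with the labelled ones, with a standard error of 0.41 in place of 0.67 and a limma adjusted p = 0.366. Without HB replicate 1 the change was 2.00, and without HB replicate 2 it was 0.31. Ythdc1 had 0.4392 and 0.3997 in HF and 0.242 and 2.83 in HB, a log2 change of 1.03 (95% interval -1.57 to 3.64, limma). Crossed, its ratios were 0.323 and 0.544 in HF and 2.19 and 0.313 in HB, so that the groups overlapped either way. The log2 change was 0.26 with a common sum, 2.58 without HB replicate 1, and -0.51 without HB replicate 2. Without HB replicate 1 both readers were called higher in TE, where 3.21% of tested genes were called higher and 13.4% lower. HB is then 1 library, which is assumed to vary like the HF libraries.

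The erasers had TE values of 4.35 and 3.36 (Fto) and 6.41 and 6.47 (Alkbh5) in HF, and 2.11 and 3.41 (Fto) and 2.60 and 7.26 (Alkbh5) in HB. Their groups overlapped, and the log2 changes were -0.38 and -0.54, with adjusted p of 0.770 and 0.733 (limma). With crossed numbers both HB ratios lay below both HF ratios for either eraser, at 4.71 and 4.01 against 6.42 and 6.46 for Alkbh5 and at 2.39 and 3.01 against 3.65 and 4.00 for Fto, with adjusted p of 0.540 and 0.685 (limma). Among all tested genes 32.9% were lower without overlap with crossed numbers and 14% higher. The size depended on the scaling, with a log2 change of -1.18 for Fto and -1.36 for Alkbh5 with a common sum and of -0.06 and -0.22 with a common median. Without HB replicate 1 the change of Fto was -0.07, and without HB replicate 2 it was -0.69. Wtap had 0.843 and 1.42 in HF and 1.37 and 3.07 in HB, with a log2 change of 0.79 (95% interval -0.67 to 2.25, limma). Crossed, its ratios were 1.24 and 0.967 in HF and 2.03 and 2.07 in HB, without overlap (limma adjusted p = 0.495). Its log2 change was 0.0363 with a common sum, 1.30 without HB replicate 1 and 0.28 without HB replicate 2. Ythdf1 and Ythdf2 had log2 changes of -0.19 and -0.11 (limma). Ythdc2, not tested, had HB ratios of 2.33 and 9.32 as labelled and 4.22 and 5.15 crossed. Over the 9 members the median log2 change of TE was -0.11, and over all tested genes it was -0.35.

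The 8 lists of related genes held 61 genes, of which 56 were tested for mRNA. Of these 2 were called higher and 3 lower in mRNA, near the background of all tested genes given above. Zc3h13, a scaffold of the writer complex, fell from 16.5 ± 4.34 to 4.39 ± 0.603 RPKM (SD, 2 libraries per group), as 1 of 5 writer complex partners. Its log2 fold change was -1.68 (limma adjusted p = 0.00529). Nxf1, the mRNA export receptor that YTHDC1 delivers marked mRNA to, fell from 66.7 ± 9.68 to 21.2 ± 5.44 RPKM, as 1 of 4 tested partners of YTHDC1 and YTHDC2. Its log2 fold change was -1.62 (limma adjusted p = 0.00592). Cnot7, a catalytic subunit of the CCR4-NOT deadenylase, fell from 22.8 ± 0.509 to 6.81 ± 2.26 RPKM, a log2 fold change of -1.64 (limma adjusted p = 0.00586). At an adjusted p under 0.05 alone (limma), 5 of 11 CCR4-NOT subunits were lower and 0 higher, against the 19.1% and 7.92% of all tested genes, which became 2 lower and 1 higher with libraries shifted to a common median and 0 of either without the filter on low values.

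**Figure D4:**
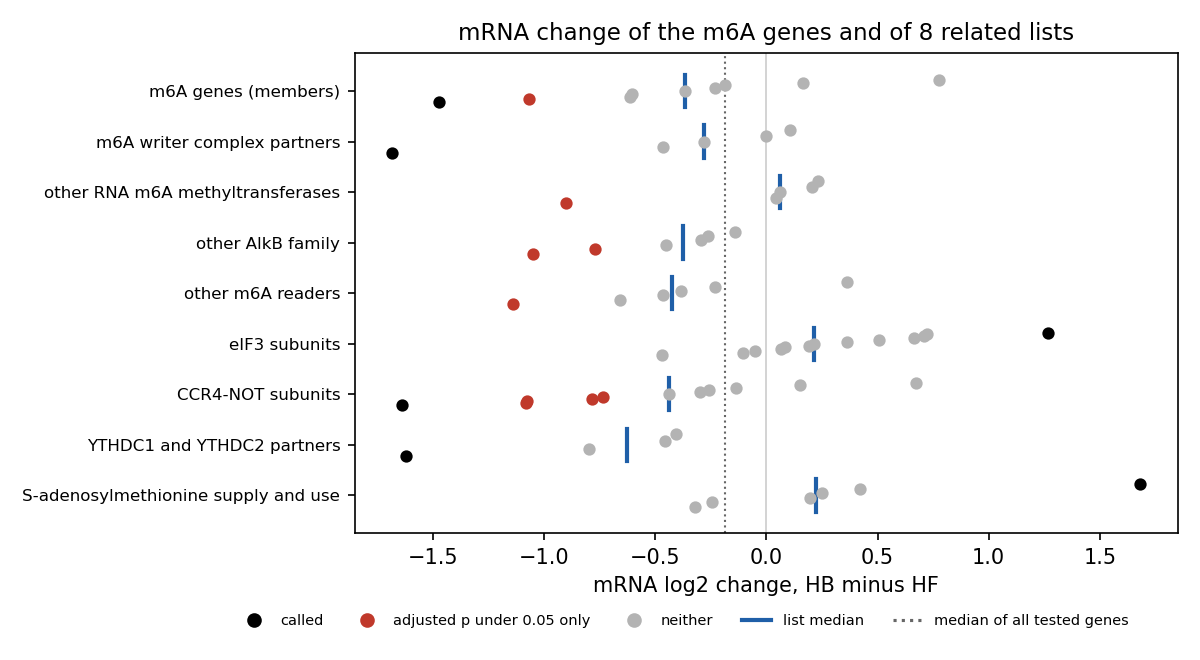
mRNA log2 change (HB minus HF, limma) of each tested gene in the m6A genes and in 8 related lists. Black points were called, red points passed an adjusted p of 0.05 only and grey points passed neither; blue bars are list medians and the dotted line is the median of all tested genes (-0.19). Medians run from -0.63 for the YTHDC1 and YTHDC2 partners to 0.22 for S-adenosylmethionine supply and use.

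The higher genes came from other lists. Eif3i, a subunit of the initiation factor eIF3, rose from 24.8 ± 1.11 to 61.0 ± 6.44 RPKM, a log2 fold change of 1.27 (limma adjusted p = 0.00842). Of the 13 eIF3 subunits it was the one called. At an adjusted p under 0.05 alone (limma) 1 was higher, which became 4 with a common median and 0 without the filter. By the study's rule 2.3% of all tested genes were called higher as deposited, 5.05% with a common median and 0.459% without the filter. Gnmt, which uses S-adenosylmethionine to methylate glycine, rose from 429.1 ± 123.8 to 1404 ± 548 RPKM, a log2 fold change of 1.68 (limma adjusted p = 0.0107). The other 5 genes of S-adenosylmethionine supply and use, including the synthetase Mat1a, the hydrolase Ahcy and Bhmt, which spends betaine, were not called in mRNA. Of the other RNA m6A methyltransferases, the other AlkB family and the other m6A readers, 0 were called in mRNA at the study's threshold in limma on log2 RPKM (voom on recovered reads called Zcchc4 lower), while 1 of 5, 2 of 6 and 1 of 6 were lower at an adjusted p under 0.05 (limma), the rule by which 19.1% of all tested genes were lower. With the libraries shifted to a common median these last counts were 0, and the genes called over the 8 lists were the same 2 higher and 3 lower. Without the filter on low values, Eif3i was the 1 gene of these lists still called in mRNA.

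In footprints 4 of the 55 tested genes of these lists were called lower and 0 higher, none with an adjusted p under 0.05 (limma), beside the 7.86% and 1.58% of all tested genes. With a common median Ahcy and Cnot2 were no longer called. Ahcy had 89.3 and 92.4 RPF RPKM in HF and 55.1 and 33.3 in HB, a log2 fold change of -1.07 on 12 reads or more per library. Cnot2, of the same deadenylase as Cnot7, had 13.5 and 15.7 RPF RPKM in HF and 5.11 and 3.09 in HB, where its values rest on 3 reads and 1 read. Alkbh4 and Alkbh7, of the AlkB family of dioxygenases, had 8 and 5 and 1 and 4 reads in HF and were listed at 0 in HB. A count of 0 allows up to 3 reads in these shallower libraries, so no direction can be read for Alkbh4 and Alkbh7. In TE, of 54 genes tested, Alkbh4 and Mettl16, which methylates a small set of RNAs, were called lower, and Alkbh3, which removes other methyl marks from RNA, was called higher. Among all tested genes 4.6% were lower and 1.49% higher, and with a common median both lower calls were lost. The 3 genes rested on 0 to 12 footprint reads per library. None of these TE calls had an adjusted p under 0.05 (the lowest was 0.364, limma).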

How the data were processed

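Liver mRNA (polyA-selected) and RPFs were sequenced in 2 libraries per group, 8 in all. Reads were mapped to mm10 with FANSe2 by the authors, who deposited RPKM per gene and used edgeR for their own comparisons. The annotation and the region counted were not given in the sources used here, and the RNA kit does not mark strand. Reads per gene were recovered from the steps between RPKM values (99.99% of RNA and 100.0% of Ribo values came out whole, within 0.05 reads). Their sums were 102.4% to 107.1% of the recovered totals. Genes with a mean of at least 1 RPKM were compared with limma 3.58.1 in R 4.3.3 on log2(RPKM + 1), two-sided, with Benjamini-Hochberg adjustment over all tested genes. For TE, each RPF value was divided by the mRNA value of the same group and number, after adding 1 to both for the fit. The fits were tested on simulated data, with changes planted only in genes of higher footprint counts than most members had. That test does not cover RPF or TE changes at the depth of those members. Positions came from GENCODE M21. All 10 members and the called genes of each list (at most 3 per measure) are named. The members and lists were chosen with earlier results of these data known. Alternatives were another pseudocount, other filters and scalings, no variance trend, a replicate block, crossed numbers, an interaction model, voom on recovered reads, and each library left out. Of the entries in the RNA tables, 4 that share a symbol were left out.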

Additional observations from a re-analysis of the deposited data

How the results depend on the processing

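Direction and side of the threshold were kept in 100 of 106 log2 changes of single members in mRNA under the alternatives. They were kept in 103 of 117 in RPF and 102 of 114 in TE. Among these, other filters, no variance trend and the replicate block cannot move a log2 change, nor can crossed numbers or the interaction in TE. Their directions were fixed in advance, and only the side of the threshold could change. The member called lower in mRNA (1, Ythdc1) was lost without the filter (0 called), with its log2 fold change still at -1.47, and 2 members were lower at an adjusted p under 0.05, with or without the fold change limit. Leaving out a library left 1 in its group, so those fits are given here by their log2 changes below, without counts of members called. RPKM rescaled to a common sum gave 2 members lower in RPF (Alkbh5 and Ythdf1), where it called 23.8% of all tested genes lower (2659) and 41 genes higher, and moved the median of all tested genes to -1.16 in RPF and -1.03 in TE. A common median moved that of mRNA to 0.08. Over the 8 lists, an adjusted p under 0.05 gave 11 of 56 lower in mRNA, where 19.1% of all tested genes were lower. The same rule gave 0 lower in RPF, and 0 higher and 0 lower in TE, as over all tested genes. With a common median the lists had 2 higher and 2 lower in RPF and 0 lower in TE. Signs turned with a common median for Mettl3 (0.0854) and Ythdf2 (0.0424) in mRNA and for Ythdf1 (0.14) and Ythdf2 (0.21) in TE. With a common sum they turned for Wtap (-0.36), Fto (-0.43) and Ythdf3 (-0.76) in RPF and for Mettl14 in TE (-0.0365). Mettl14 also turned in RPF with voom (0.24) and in TE with a pseudocount of 0.1 (-0.70). Leaving out each library, signs turned for Alkbh5 in mRNA (-0.11 to 0.44). In RPF they turned for Mettl3 (-1.72 to 0.56), Mettl14 (-1.32 to 0.66), Alkbh5 (-0.79 to 0.0424), Ythdf3 (-0.35 to 0.52) and Ythdc1 (-1.81 to 0.93). In TE they turned for Mettl3 (-1.52 to 0.73), Mettl14 (-0.66 to 1.21), Alkbh5 (-1.24 to 0.16) and Ythdc1 (-0.51 to 2.58). The cause was not tested. HF and HB libraries of the same number did not deviate together (correlations over genes of -0.104 in mRNA and -0.0138 in RPF). No pairing of the groups by number was seen, although shallow footprints could hide one in RPF. The replicate block kept Ythdc1 called (limma adjusted p = 0.0001679) and changed no count of members called by the study's rule. In the lists it added Prrc2a, Cnot3 and Cnot4 to the 3 genes called lower in mRNA. It moved the mRNA calls over all genes from 246 higher and 701 lower to 498 and 1229. With 3 reads as the floor, HB replicate 2 could not show an RPF level under 21.1 RPKM for a gene of 1 kilobase, against 2.84 in HF replicate 2.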
